A study of Mus musculus with 45 samples.

Results

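The nuclear-encoded respiratory chain genes are 80 of the 33924 genes listed in the RNA-seq tables of mouse embryonic stem cells (ESCs) that lack 1 or both copies of the long non-coding RNA gene 5430416N02Rik. They were chosen by symbol (Nduf followed by a, b, c, s or v and a number, Sdha to Sdhd, Uqcr, Cox4 to Cox8, and Atp5) and by a mean level of at least 3 in the table. Levels are regularized log (rlog) values, which are normalized counts on a log2 scale with the values of weakly covered genes drawn toward their mean. Of 87 symbols with the pattern, 7 were left out. Complex I has 35 members, complex II 4, complex III 8, complex IV 13 and complex V 15. The other 5 (Cox7a2l, Cox4nb, Ndufa4l2, Atp5s and Atp5sl) carry the name of a family but are not subunits in the usual sense. Ndufa4 was counted with complex IV, where its protein is now placed.

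The respiratory chain sits in the inner mitochondrial membrane. Complexes I and II pass electrons from NADH and succinate to ubiquinone, complex III passes them on to cytochrome c, and complex IV to oxygen. Complexes I, III and IV pump protons, and complex V, the ATP synthase, uses the proton gradient to make ATP. Most subunits are encoded in the nucleus and must be matched to a few subunits made inside the mitochondrion. Pluripotent stem cells draw much of their ATP from glycolysis, and their use of respiration changes when they leave pluripotency.

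The study deleted the gene to ask what the RNA does in ESCs. In ΔPG cells the promoter and the gene body were replaced by a puromycin cassette, and in ΔG cells only the gene body was replaced, by a cassette with GFP and puromycin resistance, so that the promoter stayed. Each line was measured in heterozygous (het) and homozygous (hom) cells, either undifferentiated with vehicle (ES) or after 48 h of retinoic acid at 2 µM (RA), with 3 biological replicates in each of 8 groups (24 samples). All cells were of strain 129 and carried at least 1 deleted copy. The paper gives serum and LIF for the culture of its ESCs, and does not say whether LIF stayed during RA treatment. The labels do not say which clones, or how many, the replicates of a genotype came from, so effects of clone and of genotype cannot be told apart.

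The deleted RNA had rlog values of 3.80 to 4.62 in the 6 ΔPG het and 2.12 to 2.66 in the 6 ΔPG hom samples, and of 5.50 to 5.64 in the ΔG het and 2.63 to 3.08 in the ΔG hom samples, so the genotypes did not overlap. Of 13 pluripotency markers tested, 11 or 12 fell with RA in each comparison, while Lin28a rose. Pou5f1, which encodes Oct4, fell by 3.63 to 4.01 on the log2 scale, and all 14 RA response genes rose in each comparison. Dppa3, an ESC marker, stayed below a mean of 2 in every group. The 3 ΔPG het ES samples stood apart from the other 9 ΔPG samples. Their median over 12 mitochondrially encoded subunits was 8.56 to 8.68, against 10.1 to 10.5 in the others. In them, levels also followed the GC content of the genes. Across 11904 genes, the hom minus het difference in ΔPG ES had a Pearson's r of -0.705 with exonic GC content. The 2 tables were normalized separately, so levels of ΔPG and ΔG cells are not compared.

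Near the limit of 3, Atp5s was just inside, with means of 3.36 (ΔPG) and 3.64 (ΔG), and Cox6b2 had 3.75 and 3.78. Just outside were Cox4i2 (2.55 and 2.91) and Cox7b2 (1.60 and 2.79), isoforms known from lung and testis. Cox6a2, Cox8b and Cox8c, whose products are the isoforms of heart, muscle or testis, were at or below 0 on average. The chain of these cells thus showed the Cox4i1, Cox6a1, Cox7a2 and Cox8a isoforms at the higher levels, with Cox7a1 and Cox6b2 also above the limit.

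Divided by exonic length, the highest levels were those of Cox4i1 (10.86 and 10.84 in the ΔPG and ΔG tables, as log2 values per kb), which encodes a subunit next to the catalytic core of cytochrome c oxidase, and of Atp5b (10.58 and 10.57), the catalytic beta subunit of the ATP synthase. Sdha, the flavoprotein of complex II, stood at 7.93 and 7.94 and the iron-sulfur protein gene Sdhb at 7.12 and 6.91. Among the core subunits of complex I, Ndufv1 (7.80 and 7.64) stood above Ndufs7 (6.40 and 6.26). The lowest member was Ndufb2 (1.42 and 1.35). Members with near-identical pseudogenes elsewhere in the genome can share reads with them, so their levels are uncertain to that extent. Lengths count all annotated exons of a gene, so a gene with a long rarely used exon appears too low on this scale.

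**Figure D1:**
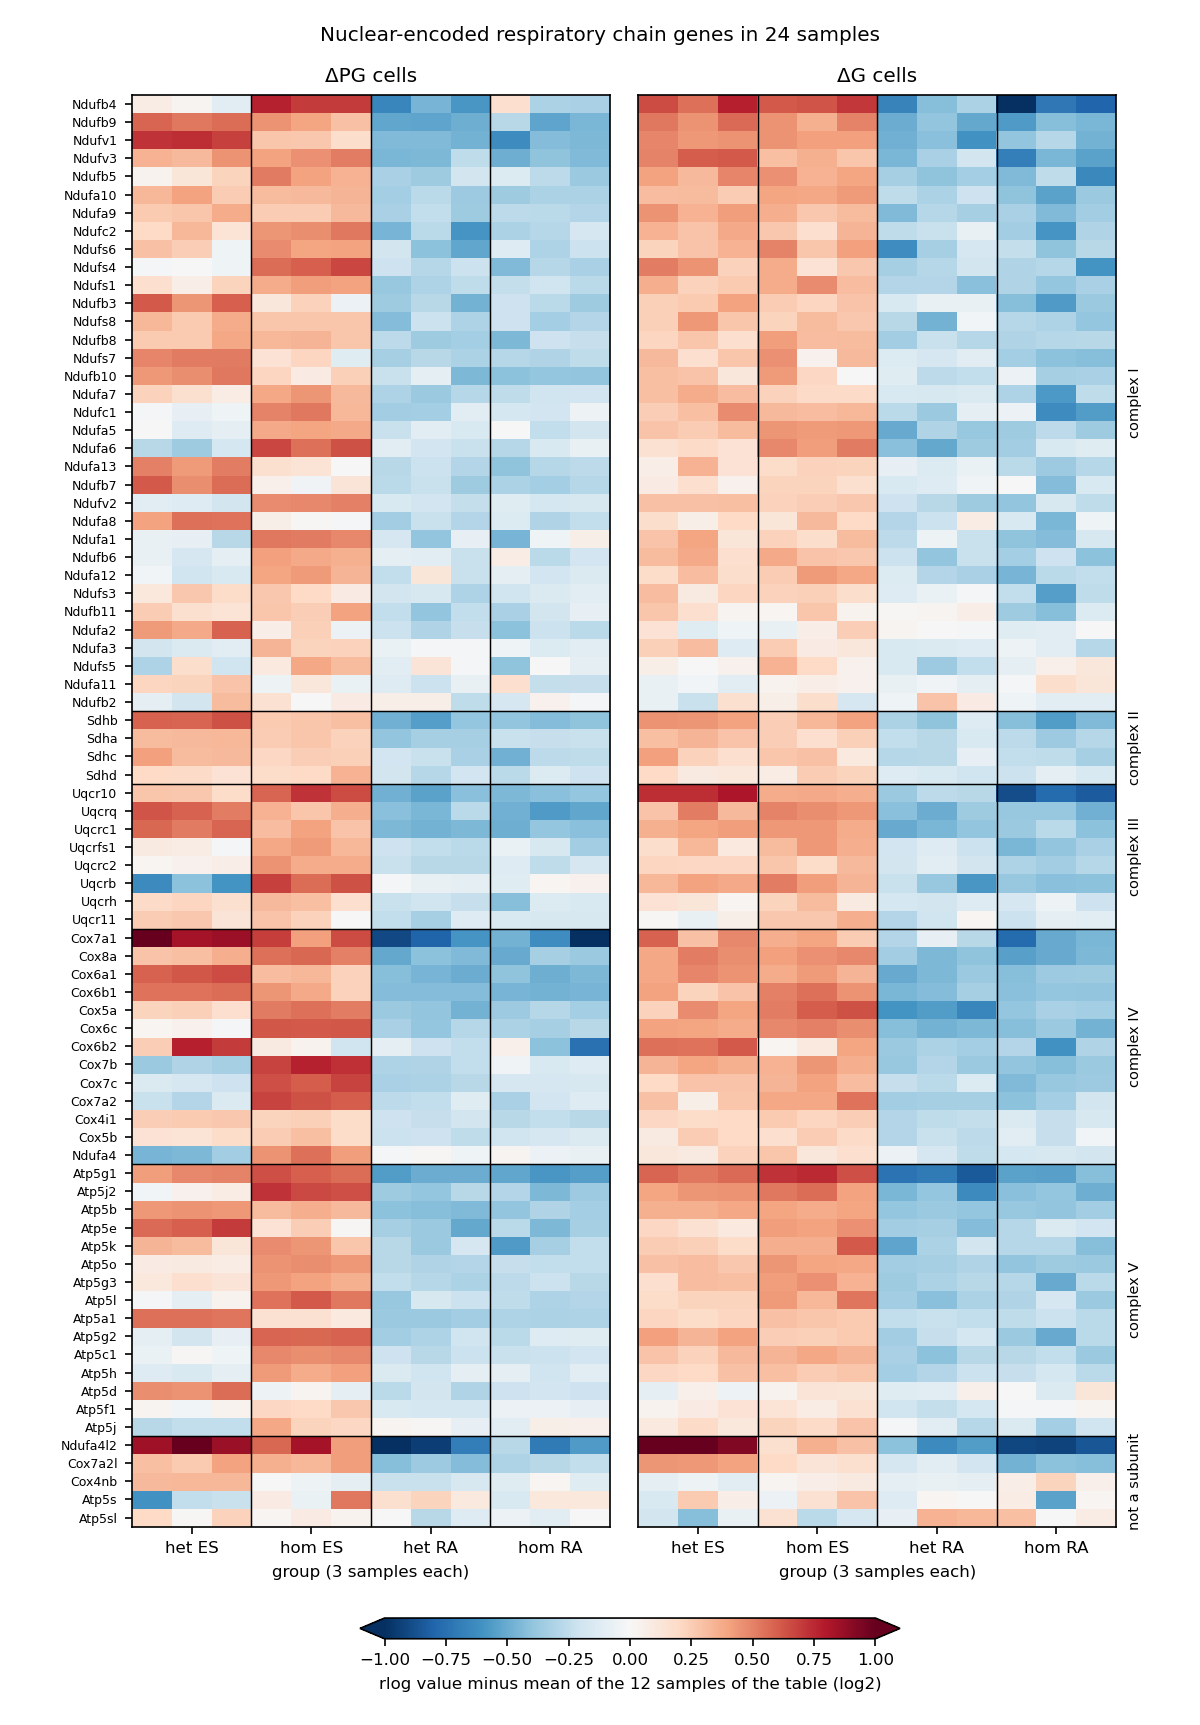
Each row is 1 member (1 of the 80 is not shown), grouped by complex and sorted within it by the mean difference between RA and ES, and each column is 1 sample (ΔPG left, ΔG right, 3 per group); colour gives the rlog value minus the mean of the 12 samples of that table. Most rows are red in ES and blue in RA in both lines, and in ΔPG the het ES samples are pale or blue in rows such as Uqcrb and Ndufa4.

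The comparison of RA with ES samples asked how expression changes when the cells leave pluripotency. Respiratory chain transcripts were lower after RA in both genotypes of both lines (4 comparisons), and all 5 complexes took part. In the limma test (adjusted p under 0.1 over all genes of the table), 64 of 80 members fell and 5 rose in ΔPG het, where 25.6% of all 21979 genes tested fell and 31.8% rose. In ΔPG hom, 74 fell and none rose, against 22.7% and 29.3% of all genes. In ΔG het, 71 fell and 1 rose (23.8% and 30.7% of the 22048 genes tested), and in ΔG hom, 72 fell and none rose (23.4% and 30%). Among genes with a mean of at least 3, as every member has, 37.1% to 39.8% fell. The median difference of the members was -0.48, -0.61, -0.55 and -0.66 in ΔPG het, ΔPG hom, ΔG het and ΔG hom (log2), while the median over all genes was 0.0074, 0.0052, 0.043 and 0.016. In total 56 members fell in all 4 comparisons (15% of the 20645 genes tested in both tables did), and leaving out ΔPG het, 69 fell in the other 3 (19.2% of all genes). In 57 members of ΔPG and 68 of ΔG, the 6 ES samples all lay above the 6 RA samples, as they did in 14.6% and 17.4% of all genes tested and in 24.5% and 29.3% of those with a mean of at least 3. With a limit on size as well, a log2 difference over 0.5, 39, 55, 47 and 59 members fell in ΔPG het, ΔPG hom, ΔG het and ΔG hom. With an adjusted p under 0.05 and a fold over 1.5, 35, 42, 31 and 48 fell.

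In these bulk samples, fewer cells of a type and less RNA per cell cannot be told apart. Along with the fall of the members, 9 or 10 of 10 extraembryonic endoderm markers rose with RA (the mean over the list ranged from 3.89 to 4.40 in ES and from 6.47 to 7.45 in RA samples). Of 8 fibroblast markers, 7, led by collagen genes, rose as well (2.65 to 2.99 in ES and 4.47 to 4.89 in RA samples). The other, Thy1, fell by 0.67, 0.53 and 0.37 in ΔPG het, ΔPG hom and ΔG het. No group mean of a marker was at 0. The paper states that its ESCs were grown without feeder cells. The part of these markers in the fall of the members was not tested. In ΔPG het the RA difference of the members also followed exonic GC content (Pearson's r = -0.55 over 80 members, as a description), whereas r was -0.028, -0.11 and -0.030 in ΔPG hom, ΔG het and ΔG hom. The members are short genes, with a median exonic length of 1304.5 bases against 3779 (ΔPG) and 3764 (ΔG) for genes with a mean of at least 3. With the trend of each sample against length removed, 58, 63, 64 and 64 members fell in ΔPG het, ΔPG hom, ΔG het and ΔG hom, and 16, 0, 3 and 2 rose, with medians of -0.32, -0.36, -0.39 and -0.48.

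**Figure D2:**
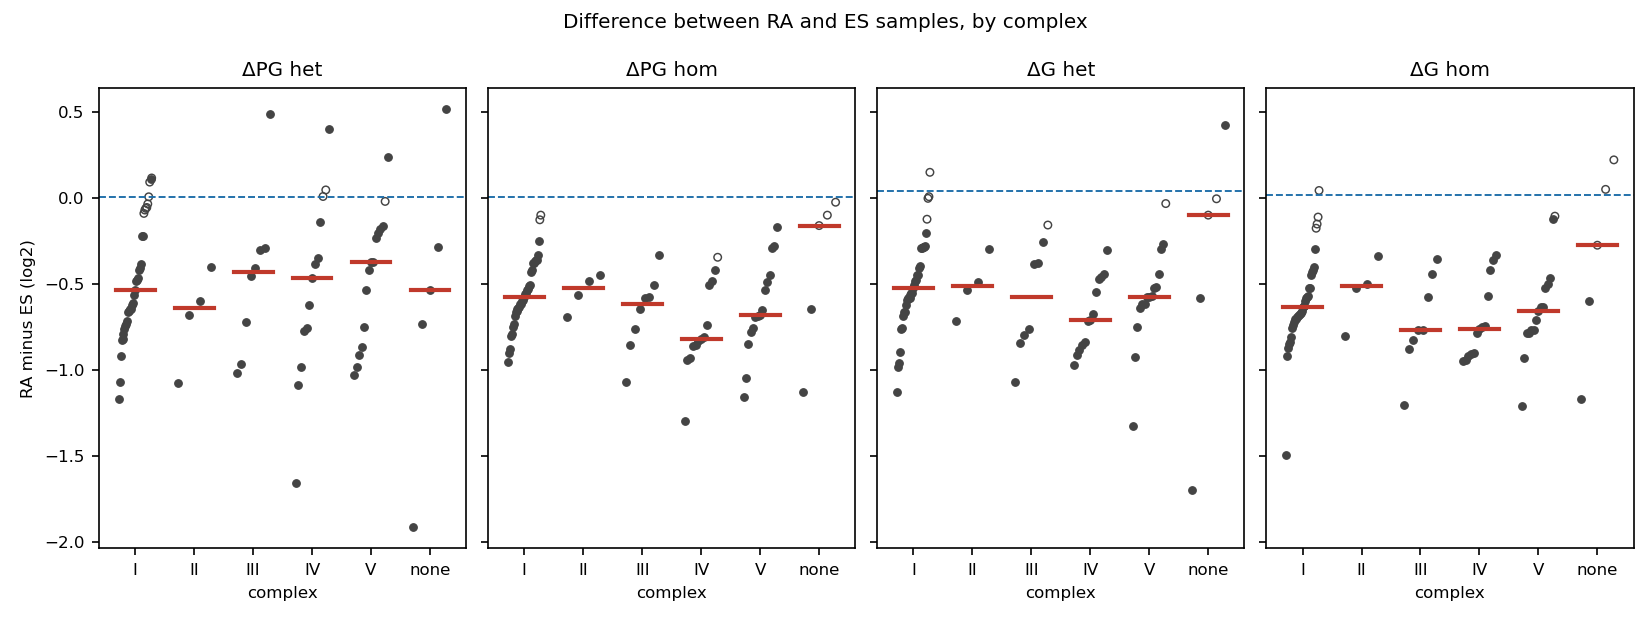
Log2 difference (RA minus ES) of each of the 80 members by complex, 1 panel per line and genotype; filled points are members with an adjusted p under 0.1, red bars are medians of a complex, and the dashed line is the median of all genes tested. The medians of complexes I to V lie between -0.37 and -0.82, below the dashed line in every panel.

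Promoter sequences are shown for the member of each complex with the largest mean fall among those with a motif, and for Uqcr10 and Atp5g1, the subunit genes of complexes III and V with the largest mean falls, whose printed bases hold none of the 3 motifs searched. RefSeq windows (GRCm38.p6, 250 bases before to 50 after a start site) were found for 66 of the 80 members. They were searched on both strands for the sites of factors known to act on respiratory genes, namely the NRF1 site (the capitals that begin with GCGCA in the lines here), CCGGAAG for the ETS family, to which GABP belongs, and AAGATGGC for YY1. NRF1 letters occurred in the windows of 17 members (25.8%, against 5.19% of 27025 genes), ETS letters in 16 (24.2% against 9.93%) and YY1 letters in 10 (15.2% against 3.19%). At least 1 of the 3 was found for 37 members (56.1% against 16.4%). The 27025 genes were not limited to those expressed in these cells, so these shares cannot tell the members from other expressed genes. A match describes the letters only and is no proof of binding. Each line gives the 150 bases before the start site, all on the minus strand of the genome and written 5′ to 3′ in the direction of the gene, with motif matches in capitals. The positions are chr16:37654369-37654518 (Ndufb4), chr13:74350241-74350390 (Sdha), chr4:116075071-116075220 (Uqcrh), chr5:115348959-115349108 (Cox6a1), chr2:174464102-174464251 (Atp5e), chr11:4704345-4704494 (Uqcr10) and chr11:96075632-96075781 (Atp5g1).
Ndufb4: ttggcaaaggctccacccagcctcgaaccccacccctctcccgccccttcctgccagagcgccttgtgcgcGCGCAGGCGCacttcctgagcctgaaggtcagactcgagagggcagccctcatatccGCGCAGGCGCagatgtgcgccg
Sdha: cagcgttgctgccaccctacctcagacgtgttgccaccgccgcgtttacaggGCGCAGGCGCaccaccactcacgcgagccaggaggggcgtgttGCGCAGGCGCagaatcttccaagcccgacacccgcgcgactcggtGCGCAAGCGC
Uqcrh: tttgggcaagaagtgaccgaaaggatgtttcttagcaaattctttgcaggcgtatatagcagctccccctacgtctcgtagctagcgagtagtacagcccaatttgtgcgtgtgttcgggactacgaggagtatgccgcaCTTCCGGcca
Cox6a1: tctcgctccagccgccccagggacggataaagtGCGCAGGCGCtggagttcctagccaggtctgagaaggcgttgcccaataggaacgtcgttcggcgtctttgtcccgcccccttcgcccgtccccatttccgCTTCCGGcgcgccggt
Atp5e: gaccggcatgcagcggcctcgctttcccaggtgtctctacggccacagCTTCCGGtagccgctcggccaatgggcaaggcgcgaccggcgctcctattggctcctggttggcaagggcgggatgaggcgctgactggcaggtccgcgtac
Uqcr10: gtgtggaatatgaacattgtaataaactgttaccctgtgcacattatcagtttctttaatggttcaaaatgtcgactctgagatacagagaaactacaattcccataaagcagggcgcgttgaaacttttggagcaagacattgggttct
Atp5g1: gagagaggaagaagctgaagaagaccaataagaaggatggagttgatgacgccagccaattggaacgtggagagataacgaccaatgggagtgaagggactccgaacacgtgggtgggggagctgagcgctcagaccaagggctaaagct
The NRF1 letters began 79 and 22 bases before the start of Ndufb4, 98, 55 and 10 bases before that of Sdha and 117 bases before that of Cox6a1. The ETS letters, read on the other strand, began 10, 16 and 102 bases before the starts of Uqcrh, Cox6a1 and Atp5e.

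Complex I, the NADH dehydrogenase, had 26, 33, 31 and 31 of 35 members lower in RA in ΔPG het, ΔPG hom, ΔG het and ΔG hom, and 23 were lower in all 4. Ndufb4 (chr16:37647256-37654539 in NCBIM37, as for all gene positions here), an accessory subunit of the membrane arm, had the largest mean fall of the complex. In ΔPG cells it was at 6.77, 6.73 and 6.59 in the het ES samples, 7.46, 7.40 and 7.39 in hom ES, 6.04, 6.23 and 6.11 in het RA and 6.87, 6.38 and 6.37 in hom RA. In ΔG cells it was at 7.48, 7.38 and 7.61 in the het ES samples, 7.44, 7.46 and 7.54 in hom ES, 6.16, 6.41 and 6.51 in het RA and 5.82, 6.11 and 6.04 in hom RA. Every RA sample lay below the ES samples of its own line and genotype, and the difference was -0.56 and -0.88 in ΔPG het and hom (adjusted p = 0.000355 and 7.77e-05) and -1.13 and -1.49 in ΔG het and hom (adjusted p = 4.26e-07 and 2.41e-10).

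The core subunits of complex I that are encoded in the nucleus carry the flavin and the iron-sulfur clusters. Among those described here, Ndufv1, the NADH-binding subunit, had the largest mean fall. Ndufv1 (chr19:4007497-4012806) was at 9.86, 9.87 and 9.82 in ΔPG het ES and at 8.69, 8.69 and 8.66 in ΔPG het RA. In ΔG hom it was at 9.42, 9.38 and 9.38 in ES and 8.58, 8.68 and 8.50 in RA. The groups did not overlap in any comparison, and it fell by 1.17, 0.75, 0.96 and 0.81 in ΔPG het, ΔPG hom, ΔG het and ΔG hom. Ndufs1, Ndufs3, Ndufs7 and Ndufs8 fell in all 4 comparisons as well, by 0.28 to 0.82. Ndufv2 fell by 0.64, 0.58 and 0.52 in ΔPG hom, ΔG het and ΔG hom but had a difference of -0.054 (SE 0.037, adjusted p = 0.286) in ΔPG het.

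Members of complex I that did not follow were Ndufb2, lower in no genotype, and Ndufa11, a membrane arm subunit, lower in ΔPG het only (0.38). Ndufa11 was at 8.04, 8.08 and 8.00 in the het ES samples, 8.14, 8.17 and 8.15 in hom ES, 8.03, 8.07 and 8.01 in het RA and 8.09, 8.28 and 8.23 in hom RA in ΔG cells, where ES and RA samples overlapped. Its difference was -0.00048 (SE 0.059, adjusted p = 0.994) in ΔG het and 0.045 (SE 0.066, adjusted p = 0.614) in ΔG hom. Ndufb2 lies close to the limit of 3, where rlog values are drawn most toward the mean. In ΔPG het alone Ndufa3 rose by 0.11 (SE 0.047, adjusted p = 0.0782), and it fell by 0.36, 0.28 and 0.30 in the other 3 comparisons.

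All 4 genes of complex II, the succinate dehydrogenase that also works in the tricarboxylic acid (TCA) cycle, fell in all 4 comparisons. Sdhb (chr4:140517118-140535108), the iron-sulfur subunit, fell most. In ΔPG it was at 8.87, 8.87 and 8.92 in the het ES samples, 8.55, 8.56 and 8.59 in hom ES, 7.80, 7.73 and 7.90 in het RA and 7.89, 7.85 and 7.89 in hom RA, and in ΔG at 8.52, 8.52 and 8.48 in the het ES samples, 8.32, 8.41 and 8.48 in hom ES, 7.76, 7.68 and 7.95 in het RA and 7.65, 7.52 and 7.64 in hom RA. No RA sample reached an ES sample of either line, and the fall was 1.08, 0.69, 0.71 and 0.80 in ΔPG het, ΔPG hom, ΔG het and ΔG hom. Sdha, the catalytic flavoprotein, fell by 0.68, 0.48, 0.53 and 0.52, and Sdhc and Sdhd, the membrane anchors, fell by 0.30 to 0.60.

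In complex III, 7 or 8 of 8 members fell in each comparison. Uqcr10 (chr11:4601976-4604345), a small accessory subunit, had the largest mean fall. It was at 8.28, 8.27 and 8.18 in the het ES samples, 8.58, 8.72 and 8.65 in hom ES, 7.52, 7.47 and 7.58 in het RA and 7.55, 7.58 and 7.61 in hom RA in ΔPG and at 9.12, 9.12 and 9.19 in the het ES samples, 8.75, 8.76 and 8.75 in hom ES, 8.01, 8.12 and 8.10 in het RA and 7.49, 7.61 and 7.55 in hom RA in ΔG. ES and RA samples were clearly apart in both lines, and the fall was 0.72, 1.07, 1.07 and 1.20, with adjusted p between 1.33e-11 and 6.11e-06. Uqcrc1 and Uqcrc2, the large core proteins, fell by 1.02, 0.76, 0.84 and 0.77 and by 0.30, 0.58, 0.37 and 0.57, and Uqcrfs1, the Rieske iron-sulfur protein, by 0.29, 0.57, 0.38 and 0.76.

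Uqcrb, which encodes another small subunit of complex III, showed both directions. In ΔPG it was at 7.29, 7.51 and 7.33 in the het ES samples, 8.61, 8.49 and 8.56 in hom ES, 7.91, 7.85 and 7.84 in het RA and 7.81, 7.94 and 7.97 in hom RA. In ΔG it was at 8.65, 8.72 and 8.70 in the het ES samples, 8.83, 8.74 and 8.66 in hom ES, 8.10, 7.94 and 7.74 in het RA and 7.94, 7.90 and 7.91 in hom RA. The 3 ΔPG het ES samples were the lowest of the 12 ΔPG samples, so in ΔPG het the gene rose by 0.49 (SE 0.062, adjusted p = 0.000348), whereas in ΔPG hom, ΔG het and ΔG hom it fell by 0.65, 0.76 and 0.83.

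Complex IV, cytochrome c oxidase, had 10, 12, 13 and 13 of 13 members lower in ΔPG het, ΔPG hom, ΔG het and ΔG hom. Cox4i1 and Cox5a, subunits that bracket the catalytic core, fell by 0.46, 0.48, 0.46 and 0.42 and by 0.62, 0.86, 0.97 and 0.94, and Cox5b and Cox6c fell in every comparison too. The ubiquitous isoforms Cox6a1, Cox6b1 and Cox8a fell by 0.71 to 1.08. Cox7a1 (chr7:30969190-30971047), known as the heart and muscle isoform of subunit VIIa, had the largest mean fall of the complex. It was at 6.15, 5.98 and 6.01 in the het ES samples, 5.84, 5.56 and 5.81 in hom ES, 4.25, 4.35 and 4.56 in het RA and 4.68, 4.53 and 4.11 in hom RA in ΔPG cells. In ΔG cells it was at 5.89, 5.59 and 5.78 in the het ES samples, 5.66, 5.70 and 5.56 in hom ES, 5.01, 5.22 and 5.03 in het RA and 4.53, 4.80 and 4.85 in hom RA. ES and RA samples did not overlap in either line, and it fell by 1.66, 1.30, 0.67 and 0.91 in ΔPG het, ΔPG hom, ΔG het and ΔG hom. Its counterpart Cox7a2, the general isoform, was at 7.81 to 7.98 in all ΔPG het samples, ES and RA alike (0.01 (SE 0.054, adjusted p = 0.933)), and fell by 0.85, 0.55 and 0.75 elsewhere. Cox6b2, the testis isoform of subunit VIb, fell by 0.76, 0.91 and 0.57 in ΔPG het, ΔG het and ΔG hom and differed by -0.34 (SE 0.20, adjusted p = 0.207) in ΔPG hom.

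Ndufa4, an accessory subunit once assigned to complex I, had the smallest mean difference in complex IV. It was at 8.20, 8.21 and 8.31 in the het ES samples, 9.11, 9.21 and 9.07 in hom ES, 8.64, 8.67 and 8.61 in het RA and 8.69, 8.60 and 8.58 in hom RA in ΔPG cells, so the ΔPG het ES samples were again the lowest. Of the 80 members, 4 had all 3 ΔPG het ES samples below the other 9 ΔPG samples, and 26 had all 3 above them. The shares of all genes with these orders are not given, so the counts cannot tell the members from other genes. With RA, Ndufa4 rose by 0.40 (SE 0.038, adjusted p = 6.82e-05) in ΔPG het and fell by 0.51, 0.30 and 0.36 in ΔPG hom, ΔG het and ΔG hom. Its paralogue Ndufa4l2 (chr10:126951995-126954208), known to be induced by hypoxia-inducible factor and to lower complex I activity, had the largest mean fall of all 80 members. It was at 5.85, 6.02 and 5.86 in the het ES samples, 5.58, 5.84 and 5.42 in hom ES, 3.63, 4.06 and 4.31 in het RA and 4.72, 4.30 and 4.44 in hom RA in ΔPG. In ΔG it was at 5.92, 5.84 and 5.53 in the het ES samples, 4.76, 4.95 and 4.89 in hom ES, 4.19, 3.96 and 4.04 in het RA and 3.69, 3.68 and 3.75 in hom RA. RA samples were below all ES samples of their line, by 1.91, 1.13, 1.70 and 1.17 in ΔPG het, ΔPG hom, ΔG het and ΔG hom.

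Complex V had 13, 15, 14 and 14 of 15 members lower with RA in ΔPG het, ΔPG hom, ΔG het and ΔG hom, and 12 were lower in all 4. The 3 genes Atp5g1, Atp5g2 and Atp5g3 encode the same mature c subunit of the rotating ring. Atp5g1 (chr11:95930166-95936984) fell most of all subunit genes on average. In ΔPG cells it was at 9.08, 9.14 and 9.16 in the het ES samples, 9.31, 9.26 and 9.22 in hom ES, 8.10, 8.17 and 8.17 in het RA and 8.14, 8.08 and 8.11 in hom RA. In ΔG cells it was at 9.32, 9.26 and 9.30 in the het ES samples, 9.46, 9.48 and 9.38 in hom ES, 8.00, 8.03 and 7.89 in het RA and 8.20, 8.19 and 8.31 in hom RA. All RA samples were below all ES samples by more than the spread of any group, and it fell by 0.98, 1.15, 1.32 and 1.21 in ΔPG het, ΔPG hom, ΔG het and ΔG hom, with adjusted p between 2.24e-12 and 3.38e-07. Atp5g2 fell by 0.16, 0.76, 0.64 and 0.63 and Atp5g3 by 0.42, 0.65, 0.57 and 0.76, so in each comparison the fall of Atp5g1 was the largest of the 3, a difference between genes that was not tested.

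The catalytic subunits of the ATP synthase changed with little spread. Atp5b was at 12.97, 13.02 and 12.98 in ΔPG hom ES and 12.27, 12.36 and 12.32 in ΔPG hom RA, and at 13.05, 13.02 and 13.05 and 12.27, 12.26 and 12.30 in ΔG hom ES and RA. It fell by 0.87, 0.68, 0.75 and 0.76 in ΔPG het, ΔPG hom, ΔG het and ΔG hom and Atp5a1, the alpha subunit, fell by 0.91, 0.45, 0.44 and 0.52. Among the central stalk subunits, Atp5c1 (gamma) fell by 0.20, 0.69, 0.62 and 0.65 and Atp5e (epsilon) by 1.03, 0.48, 0.52 and 0.63. Atp5d (delta) fell by 0.75 and 0.17 in ΔPG het and hom, but its ΔG values overlapped, with differences of -0.031 (SE 0.066, adjusted p = 0.747) in het and -0.10 (SE 0.069, adjusted p = 0.241) in hom. Atp5j, coupling factor 6 of the outer stalk, rose by 0.24 (SE 0.042, adjusted p = 0.00191) in ΔPG het and fell by 0.28, 0.27 and 0.46 elsewhere.

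**Figure D3:**
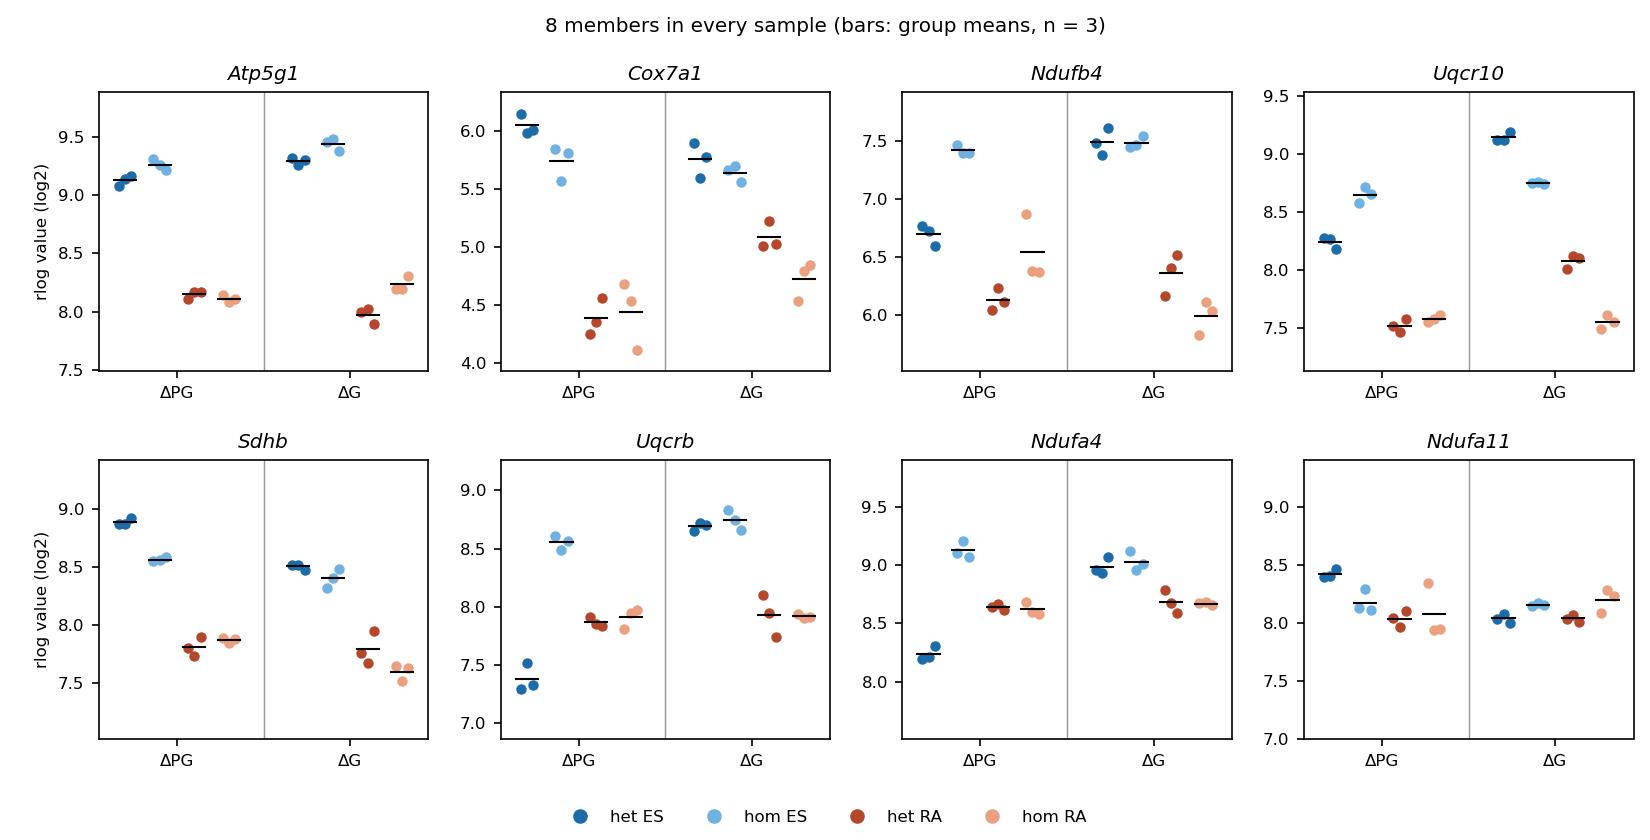
rlog values of 8 members in every sample (points) with group means (black bars, n = 3), ΔPG left and ΔG right of the grey line in each panel, all panels spanning the same log2 range. Atp5g1, Cox7a1, Ndufb4, Uqcr10 and Sdhb are lower in RA than in ES in every comparison, Uqcrb and Ndufa4 have their lowest ΔPG values in het ES, and Ndufa11 overlaps between ES and RA in ΔG.

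Besides Ndufa4l2, the symbols that are not subunits included Cox7a2l, which encodes a factor that joins complexes III and IV, and which fell by 0.73, 0.64, 0.58 and 0.60. Cox4nb, the neighbour of Cox4i1 on chromosome 8, encodes a protein of the endoplasmic reticulum and fell by 0.53 (SE 0.033, adjusted p = 6.32e-06) in ΔPG het, with differences of -0.023, -0.003 and 0.052 in ΔPG hom, ΔG het and ΔG hom that did not pass. Atp5sl, a homologue of the coupling factor gene Atp5s, rose by 0.42 (SE 0.13, adjusted p = 0.0141) in ΔG het and fell by 0.28 (SE 0.091, adjusted p = 0.0345) in ΔPG het. Atp5s itself rose by 0.52 in ΔPG het (SE 0.14), with levels too near the limit of 3 for its size to be read. Only 2 of these 5 fell in ΔPG hom, ΔG het or ΔG hom.

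Other genes of the pathway were given as lists. Of 6 further subunits and partners whose symbols fall outside the pattern, 2, 6, 4 and 5 fell in ΔPG het, ΔPG hom, ΔG het and ΔG hom, among them Cyc1 (cytochrome c1, 0.74, 0.49, 0.61 and 0.39) and Cycs (cytochrome c, 0.37, 0.52, 0.65 and 0.56). In ΔPG het, Ndufab1, Usmg5 and Atpif1 of this list rose by 0.31, 0.42 and 0.18. Of 17 genes of the TCA cycle and the pyruvate dehydrogenase complex, 15, 12, 12 and 12 fell. Pdhb, of pyruvate dehydrogenase, fell by 0.74, 0.94, 1.23 and 1.29 and Idh3a, of isocitrate dehydrogenase, by 0.50, 0.82, 0.65 and 0.96, while Suclg2 rose in all 4 comparisons. Of 31 assembly factors, 20, 18, 17 and 16 fell, with Cox17, a copper chaperone of complex IV, falling by 1.25, 0.82, 0.90 and 1.17 and Lrpprc, which stabilizes mitochondrial mRNAs, by 0.72, 1.04, 1.13 and 1.13. Ttc19 and Tmem70 rose in ΔPG het, ΔG het and ΔG hom, as did Ndufaf2 and Sdhaf2 in ΔPG het and Sco2 in ΔG het. Of 20 regulators, 9, 8, 7 and 8 fell (45%, 40%, 35% and 40%) and 5, 3, 3 and 3 rose, which is near the 39.8%, 37.1%, 37.4% and 37.2% of genes with a mean of at least 3 that fell. The shares of the TCA genes (88.2%, 70.6%, 70.6% and 70.6%) and assembly factors (64.5%, 58.1%, 54.8% and 51.6%) were above these. Among the regulators, Gabpa, a subunit of GABP, fell by 0.20, 0.57, 0.75 and 0.68. Ppargc1b fell by 0.49, 0.43, 0.43 and 0.49, and Pprc1, of the same coactivator family, by 0.72, 0.27, 0.67 and 0.32. Nrf1 fell by 0.45, 0.17 and 0.24 in ΔPG het, ΔPG hom and ΔG het and differed by -0.14 (SE 0.072, adjusted p = 0.121) in ΔG hom.

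The 12 mitochondrially encoded subunits tested, the partners of the nuclear members, did not share a direction across the 4 comparisons. With RA, 11, 9 and 9 of 12 fell in ΔPG hom, ΔG het and ΔG hom, with medians of -0.48, -0.33 and -0.30, but 11 of 12 rose in ΔPG het, with a median of 1.46. mt-Co1, the catalytic subunit of complex IV, fell by 0.78, 0.61 and 0.76 in the first 3 and rose by 0.91 in ΔPG het.

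**Figure D4:**
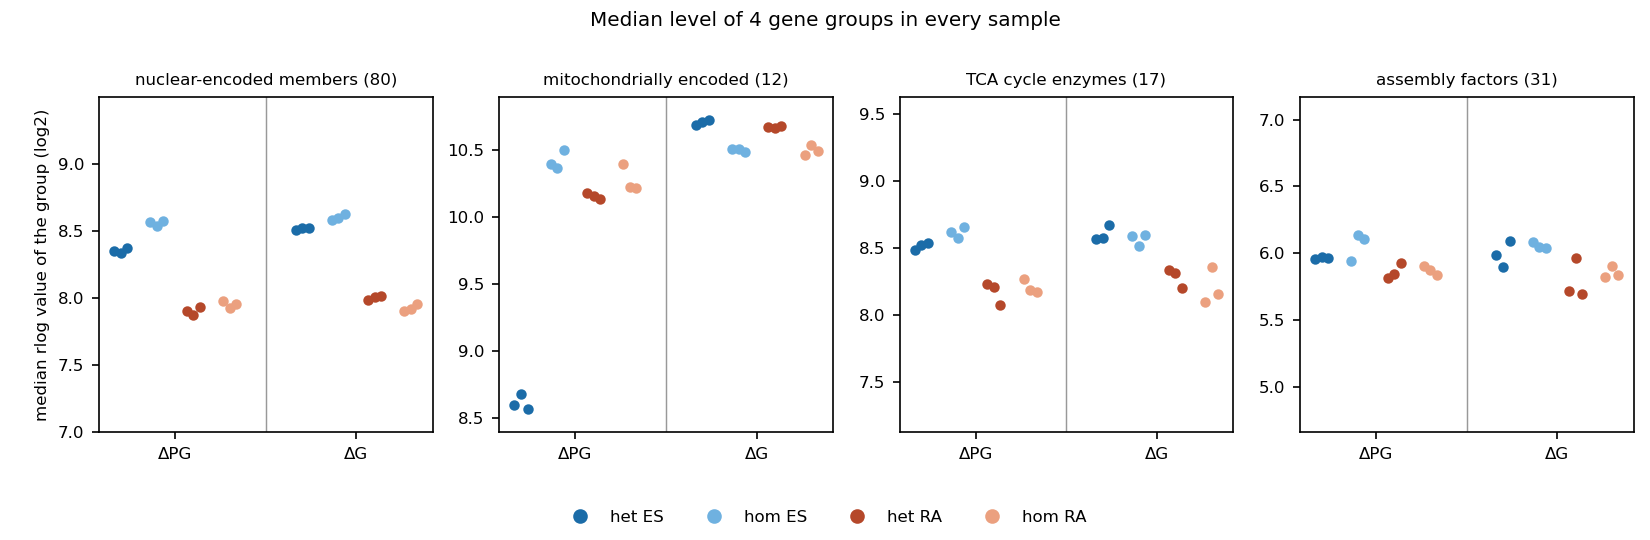
Median rlog value of 4 gene groups in each of the 24 samples, coloured by group, with ΔPG left and ΔG right of the grey line and the same log2 range on every axis. The 80 nuclear members and the TCA enzymes are lower in RA than in ES in both genotypes of both lines, and the mitochondrially encoded subunits stand apart in the 3 ΔPG het ES samples (8.56 to 8.68).

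Hom and het cells were compared within a line and treatment to ask what the loss of the second copy changes. In ΔPG ES, 38 members were higher in hom and 25 lower (47.5% and 31.2%), against 16.8% and 19.2% of all genes tested and 28% and 33% of those with a mean of at least 3. The median difference was 0.11 on the log2 scale. By complex, 16 members of complex I were higher and 10 lower, 0 and 3 of complex II, 4 and 2 of complex III, 7 and 4 of complex IV, and 10 and 4 of complex V. Uqcrb had the largest rise, 1.18 (SE 0.066, adjusted p = 8.85e-06), with the values given above. Cox7b, a small subunit of complex IV, was at 8.48, 8.55 and 8.52 in het and 9.53, 9.62 and 9.58 in hom ES, and rose by 1.06 (SE 0.036, adjusted p = 1e-06). Ndufa4, Ndufa6, Cox7a2 and Cox7c were higher by 0.89, 0.89, 0.86 and 0.81, and Atp5g2 by 0.70. Lower in hom were Cox6b2 by 0.60, Atp5d by 0.53, Ndufb7 by 0.49, Atp5e by 0.49, Ndufa8 by 0.48, Ndufv1 by 0.47, Sdhb by 0.32 and Uqcrq by 0.25. In none of these did het and hom samples overlap. Cox6b2 had means of 4.33 (het) and 3.72 (hom) in ΔPG ES. These are near the limit of 3, where rlog values are drawn most toward the mean.

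The members that were higher and lower in ΔPG hom ES differed in base composition. Median exonic GC content was 48.4% in the 38 that were higher and 54.1% in the 25 that were lower. Across the 80 members the difference had a Pearson's r of -0.546 with GC content, and across all 11904 genes -0.705, as a description over genes that share the same 6 samples. In the other 3 genotype comparisons, r over the members was -0.17 (ΔG ES), 0.0030 (ΔPG RA) and -0.0077 (ΔG RA). With the GC trend of each sample removed, 45 members were higher and 15 lower in ΔPG hom ES. Of the 63 calls, 46 passed again in the same direction. Without it, a log2 difference over 0.5 left 21 of the 63, and a fold over 1.5 left 14. With the GC trend removed, Uqcrb differed by 0.68, Cox7b by 0.60, Ndufa4 by 0.66 and Ndufa6 by 1.11, so these stayed higher. In the same setting Cox6a1 turned from -0.33 to 0.16 and Sdhb went from -0.32 to -0.0049. The 12 mitochondrially encoded subunits were all higher in ΔPG hom ES, by a median of 2.01, while in ΔG hom 7 of 12 were lower in ES (median -0.19) and 8 of 12 in RA (median -0.19), with none higher, and in ΔPG hom RA 2 were higher and none lower. The part of GC content in the ΔPG ES values of the members that kept their call was not tested further, and all ΔPG ES differences rest on the 3 het ES samples that stood apart.

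**Figure D5:**
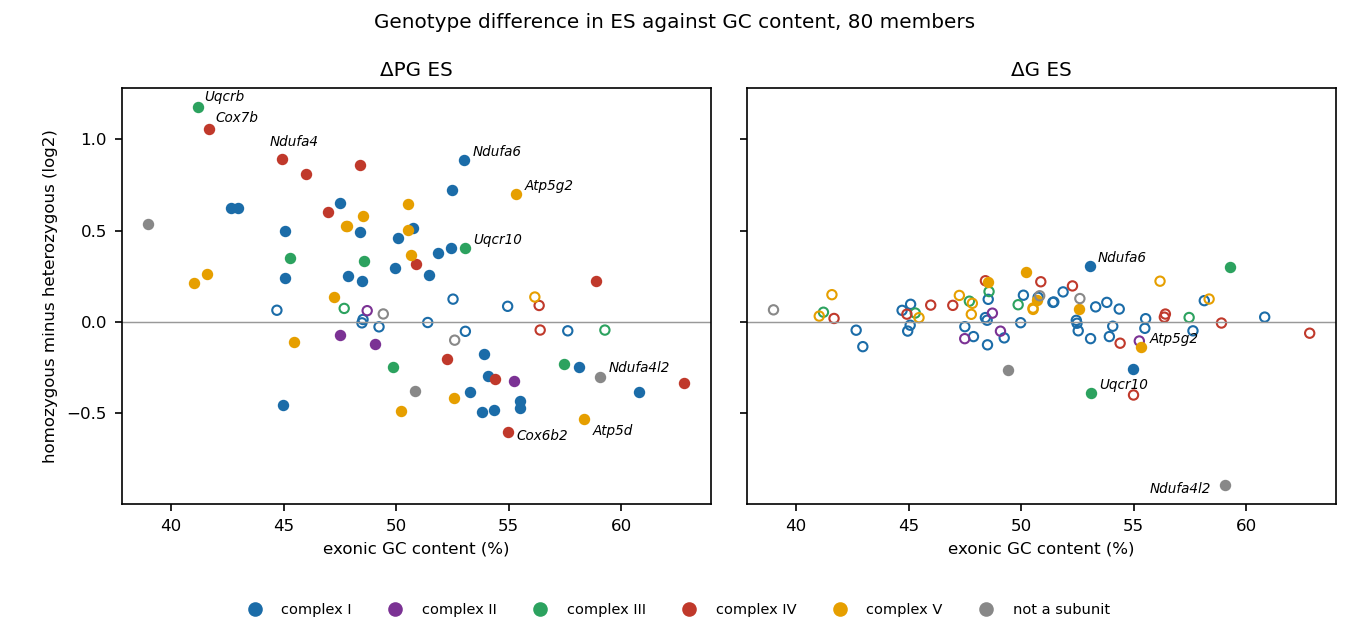
Log2 difference (hom minus het) in ES cells of the 80 members against exonic GC content, ΔPG left and ΔG right, coloured by complex, with filled points for members with an adjusted p under 0.1. In ΔPG the values run from 1.18 (Uqcrb) among the genes of low GC content to -0.60 (Cox6b2) among those of higher GC content, and in ΔG all members but Ndufa4l2 (-0.89) lie between -0.40 and 0.31.

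In ΔG ES, few members differed between genotypes. Higher in hom were 6 and lower 5 (7.5% and 6.25%), against 2.39% and 2.83% of all genes and 3.89% and 4.74% of those with a mean of at least 3. Ndufa4l2 showed the largest difference, with 5.92, 5.84 and 5.53 in het and 4.76, 4.95 and 4.89 in hom ES, and fell by 0.89 (SE 0.12, adjusted p = 0.0116). Uqcr10 was at 9.12, 9.12 and 9.19 in het and 8.75, 8.76 and 8.75 in hom and fell by 0.39 (SE 0.036, adjusted p = 0.00226). Cox7a2l was lower by 0.26, Ndufv3 by 0.26 and Atp5g2 by 0.14. The members that were higher were Ndufa6 (0.31), Uqcr11 (0.30), Atp5e (0.27), Atp5l (0.22), Atp5o (0.12) and Atp5a1 (0.073). No member of complexes II or IV passed. The count of 11 depended on the setting. It was 22 with a filter on a mean of 3 or with the GC trend removed, 21 with the length trend removed, 7 without a variance trend, and 1 with a log2 difference over 0.5, a fold over 1.5 or the replicate number as a block. Without het ES replicate 3, 7 members passed, and without hom ES replicate 1, 5.

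Of the members that passed in the ES comparison of both lines, 4 had the same and 4 the opposite direction. Ndufa6, an accessory subunit of complex I, was higher in hom in both, by 0.89 in ΔPG and 0.31 in ΔG. In ΔPG ES it was at 7.07, 6.99 and 7.18 in het and 8.02, 7.90 and 7.98 in hom, and in ΔG ES at 8.13, 8.17 and 8.12 and 8.46, 8.40 and 8.50. Atp5l and Atp5o, subunits of the membrane part and the outer stalk of the ATP synthase, were higher by 0.58 and 0.37 in ΔPG and by 0.22 and 0.12 in ΔG. Ndufa4l2 was lower in hom in both lines, by 0.30 and 0.89. Uqcr10 and Atp5g2 were higher in ΔPG and lower in ΔG hom cells, and Atp5e and Atp5a1 were lower in ΔPG and higher in ΔG.

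In RA-treated ΔPG cells the genotypes were close. Higher in hom were 4 members and lower none (5% and 0%), against 2.36% and 2.22% of all genes. The shares among genes with a mean of at least 3 are not given for ΔPG RA. They were Cox7b (0.18), Cox7c (0.14), Sdha (0.13) and Atp5f1 (0.10). Sdha, for example, was at 9.49, 9.56 and 9.56 in het and 9.67, 9.66 and 9.67 in hom RA. These 4 calls were fragile, since quantile normalization gave 2 higher and 2 lower members and leaving out any of 5 of the 6 libraries (all but hom RA replicate 1) gave 0, as did both limits on size and the replicate number as a block. The count was 1 without a variance trend, 8 with a filter on a mean of 3, and 9 with the GC or length trend removed. In ΔG RA, 4 members were higher and 14 lower in hom (5% and 17.5%), against 4.85% and 6.18% of all genes and 8.34% and 9.54% of those with a mean of at least 3. Of the 14, 8 were in complex I, 3 in complex III and 2 in complex IV, and 1, Cox7a2l, is not a subunit. Uqcr10 was again lower in hom, at 8.01, 8.12 and 8.10 in het and 7.49, 7.61 and 7.55 in hom RA, and fell by 0.52 (SE 0.07, adjusted p = 3.7e-05). Ndufb4 was lower by 0.37, Cox7a1 by 0.36 and the core subunit genes Ndufs3 and Ndufs7 by 0.28 and 0.25. Without het RA replicate 2, 11 of the 80 members passed in either direction, and without hom RA replicate 2, 10. The count was 8 without a variance trend, 28 with the length trend removed, 1 with a log2 difference over 0.5 and 0 with a fold over 1.5. Higher were Atp5g1 (0.26), Cox5a (0.25), Ndufa6 (0.22) and Atp5f1 (0.20). Of 10 extraembryonic endoderm markers, 7 were lower in ΔPG hom RA and 5 in ΔG hom RA than in het cells. Their medians were -0.55 and -0.38, and 2.22% and 6.18% of all genes were lower. In ΔPG the called markers were lower while the 4 called members, whose calls were fragile, were higher. In ΔG the 5 called markers were lower, as were 14 called members, while 4 members were higher. The part of the markers was not tested in either line.

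Whether the RA effect differed between genotypes was tested by an interaction term, fitted to the 12 samples of each line. In ΔPG it passed for 53 members, 19 with a higher and 34 with a lower RA effect in hom, against 15.2% and 13.9% of all genes, and for 24 and 12 with a log2 difference over 0.5 and a fold over 1.5. The largest were Uqcrb, Ndufa4, Ndufa6, Cox7b and Cox7a2, with interaction terms of -1.14, -0.91, -0.88, -0.88 and -0.86 (log2). These are the members with the largest ΔPG ES differences, and both contrasts use the 3 het ES samples that stood apart. In ΔG the interaction passed for 4 members, 1 higher (Atp5f1) and 3 lower (Uqcrfs1, Ndufa10 and Cox7c), against 2.67% and 2.61% of all genes. This count of 4 was 11 with a filter on a mean of 3, 12 and 7 with the GC and length trends removed, 2 without a variance trend, and 0 under either limit on size. The shares among genes with a mean of at least 3, as every member has, are not given for the interactions. In the ΔPG ES comparison such shares were above those of all genes, so the excess of members may be smaller than it looks here.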

How the data were processed

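RNA-seq of total RNA after removal of ribosomal RNA was available for 24 samples, 3 biological replicates in each of 8 groups, as 2 tables (ΔPG and ΔG) of 33924 genes. The deposited values are rlog values on the log2 scale, which the authors made with DESeq2 from counts per gene. The submitters' processing notes list TopHat2 2.1.0, HTSeq 0.6.0 and DESeq2 1.14.1, and coordinates are on NCBIM37 (mm9). The rlog transformation draws weakly covered genes toward their mean and so understates their differences, and the 2 tables were normalized separately. Read depth is unknown from these values, so no counting intervals are given. No column of per-sample values was left out (0), and the chromosome conformation files were not used here.

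Each comparison was fitted with limma 3.58.1 in R 4.3.3 (empirical Bayes with a variance trend) on the rlog values of its 6 samples, or of 12 for an interaction, over all genes that varied. The p-values were adjusted by the Benjamini-Hochberg method over all of them, with a limit of 0.1. Differences are log2, as the first-named group minus the second (RA minus ES, hom minus het). Where nothing states separate cultures, p-values measure the spread between these samples, which may be technical. Other summaries used Python 3.11.15, numpy 2.4.6 and pandas 2.3.3. The scripts were tested on simulated data.

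Named members were the called member with the largest rise and fall in each complex and comparison, core subunits, isoform groups, members called in both lines or in an interaction, and those near the limit of 3. A few more are named as examples. The values of 1 member are left out of the text and of the plot by sample. The members and lists were chosen with earlier results of these data known. Alternatives were quantile normalization, median centring, filters on the mean, removal of GC or length trends by lowess, other limits, no variance trend, a fit over 12 samples, the replicate number as a block, and leaving out each library.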

Additional observations from a re-analysis of the deposited data

Results flagged for a closer look

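The RA effect differed between hom and het cells by the interaction test (limma, adjusted p under 0.1) for the following members, given as the log2 effect in hom minus that in het. In ΔPG the 5 largest terms were those of Uqcrb (-1.14), Ndufa4 (-0.91), Ndufa6 (-0.88), Cox7b (-0.88) and Cox7a2 (-0.86). All 5 use the 3 het ES samples that stood apart from the other 9 ΔPG samples. In ΔG the terms were -0.38 for Uqcrfs1, -0.28 for Ndufa10, -0.27 for Cox7c and 0.17 for Atp5f1.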

How the results depend on the processing

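Of 48 values of single members, those with the largest rise or fall in a complex, 24 kept their direction and side of the threshold under every alternative run and none changed sign. Among the other members, Cox6a1 in ΔPG ES went from -0.33 to 0.16 with the GC trend removed. With a log2 difference over 0.5, 21 members passed in ΔPG ES (main 63), 1 in ΔG ES (11), 0 in ΔPG RA (4), 1 in ΔG RA (18), 40 for RA in ΔPG het (69), 47 in ΔG het (72), 24 for the ΔPG interaction (53) and 0 for that of ΔG (4). With adjusted p under 0.05 and a fold over 1.5, the counts were 14, 1, 0, 0, 35, 31, 12 and 0 in the same order, and 42 for RA in ΔPG hom (74). Counts rose in ΔG ES to 22 with a filter on a mean of 3, 22 with the GC trend removed and 21 with the length trend removed. Those 3 settings gave 8, 9 and 9 in ΔPG RA and 11, 12 and 7 for the ΔG interaction, and removing the length trend gave 28 in ΔG RA (11 higher and 17 lower). Without a variance trend, 7, 1, 8 and 2 passed in ΔG ES, ΔPG RA, ΔG RA and the ΔG interaction. Removing the GC trend moved the split in ΔPG ES from 38 higher and 25 lower to 45 and 15, and in the ΔPG interaction from 19 and 34 to 11 and 38. Quantile normalization gave 2 higher and 2 lower in ΔPG RA (main 4 and 0). For RA in ΔPG het the length trend moved 5 higher and 64 lower to 16 and 58. Leaving out each library gave 59 to 62 in ΔPG ES, 5 to 9 in ΔG ES, 0 to 5 in ΔPG RA, 10 to 16 in ΔG RA and 3 to 5 for the ΔG interaction. The low counts came without ΔG het ES replicate 3 (7) or hom ES replicate 1 (5), without ΔG het RA replicate 2 (11) or hom RA replicate 2 (10), and without any ΔPG RA library but hom replicate 1 (0). Same-numbered samples showed little tendency to deviate together (correlations of -0.026 to 0.085). With 3 samples per group, this cannot decide whether the numbers pair the samples. With the replicate block, 63 members passed in ΔPG ES, 1 in ΔG ES, 0 in ΔPG RA, 22 in ΔG RA, 68, 74, 73 and 73 for RA in ΔPG het, ΔPG hom, ΔG het and ΔG hom, and 53 and 4 for the interactions. The cause of these changes was not tested.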
